A study of Mus musculus with 12 samples.

Results

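The sequences described here are the 19-nt rows of the deposited piRNA table, left out where the last 3 bases are CCA, the end that is added to tRNAs. They number 27324 of the 1018402 sequences in the table. The libraries cover small RNAs of 17 to 40 nt in total testis RNA of male C57BL/6 mice aged 4 months, after and before sodium periodate (NaIO4) treatment. Each state was sequenced from 10, 50 and 100 ng of RNA with 2 technical replicates, which gives 6 groups and 12 libraries, all made with the same low-input library method. The replicates being technical, p-values tell of the spread among libraries, not among animals. The amount of spike-in RNA was scaled with the input.

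piRNAs guide PIWI proteins in germ cells and silence transposons and other transcripts. A PIWI protein that slices a transcript cuts it opposite guide bases 10 and 11, so that the part of the target upstream of the cut pairs with the guide from base 11 on, and the part downstream can become a new piRNA whose first 10 bases pair with the first 10 of the guide. Short by-products of piRNA processing end in plain hydroxyls, whereas mature piRNAs carry a 2'-O-methyl group that HENMT1 adds. Periodate blocks plain 3' ends from adapter ligation and leaves methylated ends intact, so oxidation separates the 2 kinds of end.

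Sequences are printed from the deposited table, in DNA letters with T for U. Those with a negative log2 fold change after oxidation are numbered L1 to L11, and those with a positive one P1 to P12. Of those printed in this first list, only L1, L2 and L3 show the pairing from base 11. The first is the most abundant 19-nt sequence before oxidation, with its longer partner, in which bases 11 to 29 are in capitals because they pair with the whole 19-nt sequence.
L1: CTAGAGGCTTGGAAATGAC
Partner of L1: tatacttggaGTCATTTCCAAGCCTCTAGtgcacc
The second is the 19-mer whose partner was the most abundant of those shown.
L2: AGAGACCTGAATCCAAAAA
Partner of L2: tagcaggatgTTTTTGGATTCAGGTCTCT
The third is a 19-mer for which a rare 35-nt sequence that runs on past its last base was also sequenced. That sequence had 0 RPM in all libraries after oxidation, and a median of 0 and a highest value of 0.337 RPM before. It is called uncut only because it runs across the place opposite partner bases 10 and 11, and cutting was not tested.
L3: TGGCTTCTAGGAACACTCC
Partner of L3: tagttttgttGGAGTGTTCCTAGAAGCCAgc
Uncut sequence with L3 in capitals: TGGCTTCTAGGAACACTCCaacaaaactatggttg
The fourth is a 19-mer from the last exon of Tbl2, with the 28-nt sequence that begins at the very next base, whose first 10 bases are in capitals. The capitals mark place only, since L4 had no exact partner at base 11 in the table.
L4: GCCAGGACAAAGTAAGCTC
Downstream of L4: TCAATAAATGggactctgactagaagta
The last 4 are the most abundant 19-mers after oxidation, each shown inside the most abundant longer sequence that begins with it, with bases 20 to 22 in capitals.
P1 with what follows: taccatcgggcgatgatacTGGaatg
P2 with what follows: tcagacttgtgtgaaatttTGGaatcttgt
P3 with what follows: tgtggaattgctagtatacTGGaagatc
P4 with what follows: taagactgactaattgtttTGGaatgcc

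Libraries held 1924201 to 3347735 reads in the denominator of the RPM values (reads scaled to library size), recovered from the step that 1 read makes. The 19-nt sequences took 9700 to 13834 reads in libraries after oxidation and 21657 to 26885 before. They were 405 to 1313 different sequences in libraries after oxidation, and 4683 to 8066 before. Before oxidation the testis miRNAs miR-741-3p and miR-34c-5p had medians of 29486 and 1802 RPM, against 1.03 RPM for the liver miRNA miR-122-5p. Not all markers were so far apart. The muscle miRNA miR-1a-3p had a median of 107 RPM, above the germ-cell miRNAs miR-449a-5p (33.5 RPM) and miR-471-5p (32.2 RPM). Of the remaining miRNAs of other tissues the highest was miR-9-5p, at a median of 3.85 RPM. Over the whole piRNA table, 59302 and 42603 sequences were detected in the libraries at 10 ng after oxidation, against 167866 to 210525 at 50 and 100 ng after oxidation.

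Oxidation lowered the 19-nt class. Its summed level was 4881 ± 1248 RPM after oxidation and 8211 ± 206 RPM before (SD, n = 6 libraries each). The libraries after oxidation had 6398 and 6523 RPM at 10 ng, 4245 and 4318 RPM at 50 ng, and 3631 and 4169 RPM at 100 ng, and those before lay between 7974 and 8479 RPM. The groups did not overlap, and the log2 fold change, averaged over inputs, was -0.79 (exact 2-sided permutation within inputs, adjusted p = 0.00926, lower in 6 of 6 pairs). This is the smallest p that the permutations can give. By input the log2 fold changes were -0.33 at 10 ng, -0.94 at 50 ng and -1.09 at 100 ng. The order was the opposite per methylated spike-in read, where the same 3 inputs, from low to high, had -4.11, -3.66 and -3.56. The share of the piRNA table was 0.538% ± 0.143 after and 1.02% ± 0.031 before (adjusted p = 0.00926 by the same exact permutation, n = 6 each).

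The neighbouring lengths moved the other way in RPM. The 18-nt sequences summed to 4044 ± 1386 RPM after and 1924 ± 64.4 RPM before, and the 20-nt ones to 5670 ± 1595 RPM after and 3144 ± 89.3 RPM before (SD, n = 6 each). Mature piRNAs of 29 to 32 nt summed to 599347 ± 27510 RPM after and 516595 ± 3648 RPM before. Directions in RPM are relative to the library total. Per read of the methylated spike-ins all of these classes were lower after oxidation, with log2 fold changes of -3.78 for 19 nt, -1.98 for 18 nt, -2.18 for 20 nt, -2.78 for 29 to 32 nt and -2.81 for the whole table. The 19-nt sequences stood at 0.0497 ± 0.0079 reads per methylated spike-in read after and 0.678 ± 0.077 before (SD, n = 6 each). These values pool the methylated spike-ins. With each methylated spike-in used alone, the 19-nt log2 fold change was -5.07, -3.79 and -3.10, so sizes on this scale depend on the spike-in.

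**Figure D1:**
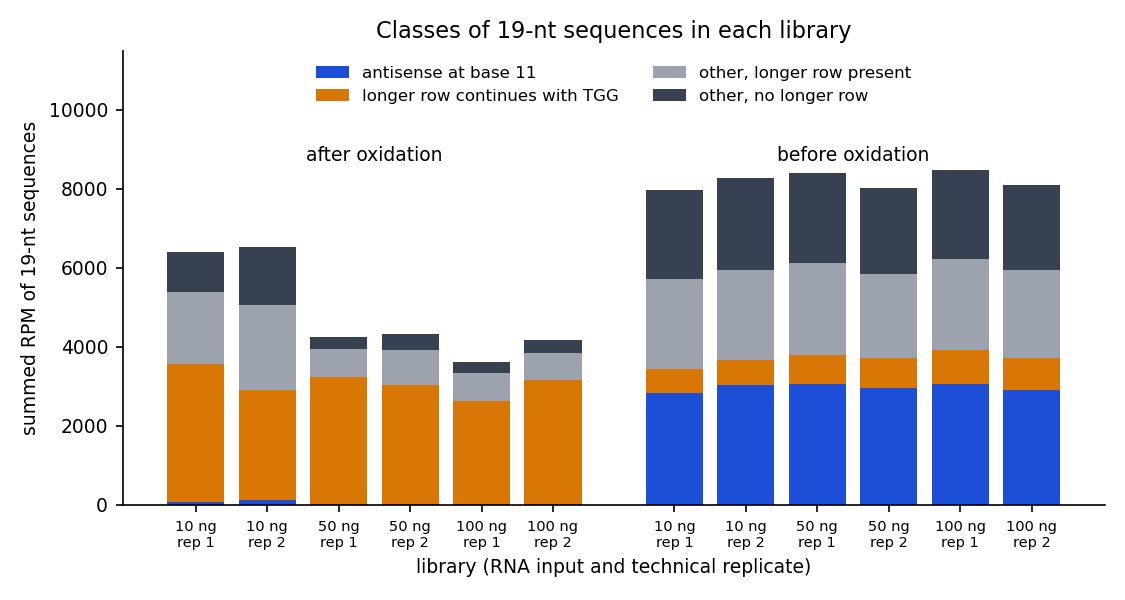
Summed RPM of the 19-nt sequences in each of the 12 libraries, stacked by class, with the 6 libraries after oxidation on the left. The part antisense at base 11, drawn without the members whose longer sequence continues with TGG, is 21.6 to 129 RPM after oxidation and 2828 to 3065 RPM before, while the part whose longer sequence continues with TGG is higher after oxidation in RPM, though lower per methylated spike-in read.

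Many 19-nt sequences paired with longer ones at the place where a guide cuts. Of all 27324, 6154 (22.5%) were exactly antisense to bases 11 to 29 of a longer sequence of the table, as L1, L2 and L3 above are. At each of bases 1 to 10 of longer sequences 1953 to 2804 of them (7.15% to 10.3%) had such a partner. With partners of 31 nt or more, which leave room on both sides, 3946 paired at base 11, against 1281 at base 12 and 1296 at base 13. Allowing 1 mismatch, 7437 (27.2%) paired at base 11 and 9.94% to 13.5% at bases 1 to 10. One longer sequence can pair with several members and one member with several partners, so these counts are not independent and carry no test.

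**Figure D2:**
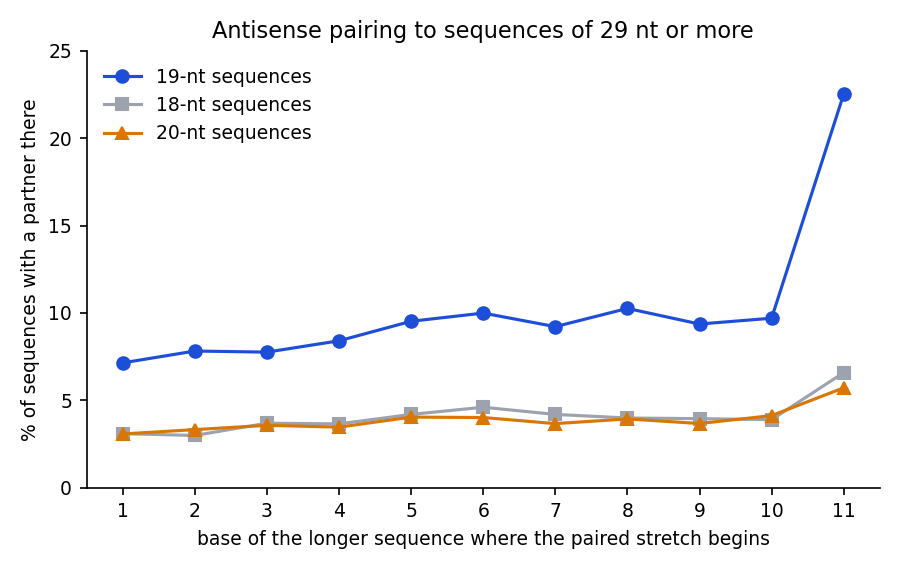
Percent of 19-, 18- and 20-nt sequences that are exactly antisense to a sequence of 29 nt or more, by the base of that longer sequence where the paired stretch begins. The 19-nt line reaches 22.5% at base 11, against 6.59% for 18 nt and 5.72% for 20 nt.

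Weighted by abundance, the sequences antisense at base 11 made 4.84% ± 0.27 of the 19-nt RPM after oxidation and 37.1% ± 0.47 before (SD, n = 6 each). The difference was -32.2 percentage points, with the lower share after oxidation in 6 of 6 pairs (exact permutation within inputs, adjusted p = 0.00926). With only partners of at least 1 RPM on average it was -11.7 points. Their summed level was 238 ± 69.2 RPM after and 3044 ± 94.4 RPM before. The 4458 of them that begin with a base other than U, the usual first base of a piRNA, had 51.1 ± 51.7 RPM after and 2225 ± 73.5 RPM before, a 43.6-fold difference. At 10 ng these had 117 RPM after oxidation, against 19.3 RPM at 50 ng and 16.6 RPM at 100 ng.

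The lengths next to 19 nt carried less of this. With partners of at least 30 nt, so that 20-nt sequences have room, 32.8% ± 0.54 of the 19-nt RPM before oxidation was antisense at base 11, against 5.90% ± 0.60 of the 20-nt and 9.93% ± 1.38 of the 18-nt RPM (SD, n = 6). The 19-nt share was the higher in 6 of 6 libraries against either length (exact sign-flip test, adjusted p = 0.0417 for each of 2 of 4 comparisons). After oxidation the 19-nt share was 4.71% ± 0.13, against 2.03% ± 0.18 at 20 nt (exact sign-flip test, adjusted p = 0.0417). Against 8.71% ± 2.80 at 18 nt, the difference of -4.00 percentage points after oxidation ranged over libraries between -6.87 and 0.144 and missed the threshold (exact sign-flip test, adjusted p = 0.0625), and it turned to 0.864 with each detected sequence counted once.

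The longer partners began with U more often than other long sequences. They numbered 15185, and 89.7% of them began with U, against 73.9% of all 478832 sequences of 29 nt or more. By RPM before oxidation 96.5% of the partners began with U, against 89.6% of all such sequences, and A stood at base 10 in 46.0% against 35.2%. The gap for A at base 10 was smaller in the other weightings. It was 39.8% against 34.0% by RPM after oxidation, and 38.0% against 33.6% with each sequence counted once. Partners summed to 39523 RPM after oxidation and 33677 RPM before. A partner was not always abundant: the one printed for L1 had a median of 0 RPM after and 0.318 RPM before, while the one for L2 had 183 RPM after and 649 RPM before. The partner of L3 was not detected in any library before oxidation, and those of L8, L9 and L10 had medians of 0 RPM in both states. Among members antisense at base 11, 1082 also had a sequence of 24 nt or more with the same start, and in 1016 of these (93.9%) its next 5 bases pair with partner bases 6 to 10, as in the uncut sequence printed for L3. Sequences from opposite strands of the same place would pair on in this way with or without a cut. Pairing at other bases was not compared, so this share does not tell of cutting.

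Longer sequences that start right after a 19-nt sequence, where the downstream part of a cut transcript would begin, were counted next. In GENCODE M21 transcripts, 7520 of the 19-nt sequences had a sense match, and for 2408 of them (32.02%) a longer sequence of 24 nt or more began at the next base. At the base before and the base after that position the counts were 1615 (21.5%) and 1519 (20.2%). Among the 1499 that were also antisense at base 11 the share at the next base was 47.0%, against 26.5% and 23.7% at its neighbours. Among the 6021 others it was 28.3%, against 20.2% and 19.3%. A second peak, at 34.1%, lay where the longer sequence shares the start of the 19-nt sequence.

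**Figure D3:**
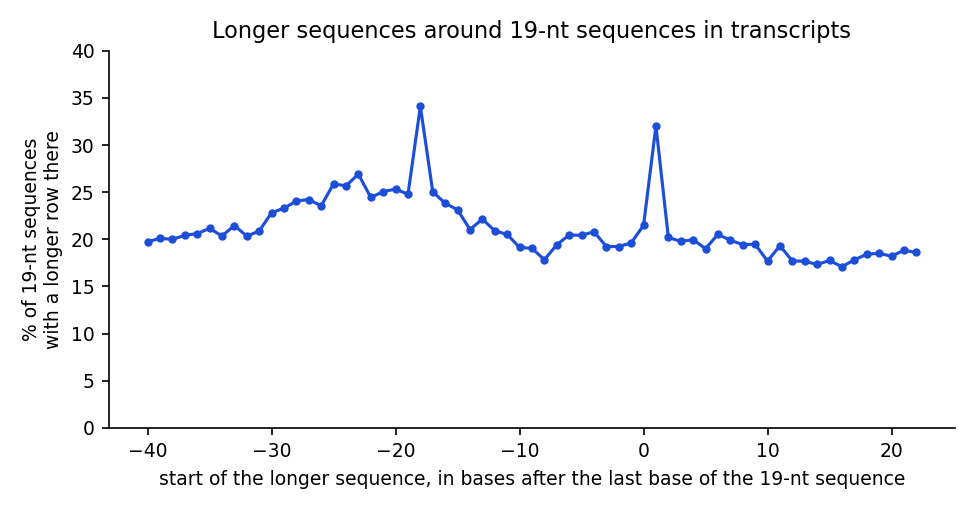
Percent of the 7520 19-nt sequences with a sense transcript match for which a longer sequence of the table starts at a given distance, in bases after the last base of the 19-nt sequence. It peaks at 32.02% at the next base and at 34.1% where both share a start, 18 bases before the last base.

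L4 and the 28-nt sequence after it are an example of such neighbours. L4 lies in the 3' UTR of Tbl2, in exon 7, at chr5:135162196-135162214 on the plus strand (GRCm38), and the 28-nt sequence occupies the bases right after it, chr5:135162215-135162242. L4 had a lowest, median and highest value of 0, 0 and 0.316 RPM after oxidation, and 40.9, 54.4 and 74.7 RPM before. Its downstream neighbour had 166, 221 and 415 RPM after, and 61.1, 73.0 and 80.3 RPM before. The groups overlapped for neither sequence: the 19-mer was all but absent after oxidation, and the 28-nt sequence was higher in RPM. L4 had 1 read after oxidation against 988 reads before, a ratio of 0.00114 with a 95% counting interval of 2.89e-05 to 0.00638. The log2 fold changes of the 2 sequences were -5.74 ± 0.23 (SE, limma, adjusted p = 1.78e-06) and 1.75 (limma, adjusted p = 1.1e-05). L4 had no exact partner at base 11 in the table.

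After oxidation a different set of 19-nt sequences made up the class. The share beginning with U was 83.2% ± 9.3 after and 42.8% ± 0.66 before, and the share identical to the first 19 bases of a longer sequence was 88.4% ± 6.3 after and 55.0% ± 0.57 before (SD, n = 6; exact permutation within inputs, adjusted p = 0.00926 for each, higher in 6 of 6 pairs). A at base 10 held 18.97% ± 2.3 of the RPM after and 29.9% ± 0.64 before (exact permutation, adjusted p = 0.00926, lower in 6 of 6 pairs). With each detected sequence counted once, the differences were 22.3 points for U first and -3.39 for A at base 10, and without the sequences that continue with TGG, described next, the shared starts differed by 17.7 points. The 10 most abundant sequences held 33.2% of the 19-nt RPM after oxidation and 7.32% before.

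The bases that follow in longer sequences set many of these apart. Of all 27324 sequences, 1113 (4.07%) are the start of a sequence of 22 nt or more that continues with TGG at bases 20 to 22, searched on the sequenced strand only. They held 3039 ± 312 RPM after oxidation and 734 ± 95.5 RPM before (SD, n = 6 each), or 62.3% of the 19-nt RPM after and 8.94% before. The 11053 that continue only with other bases held 1184 ± 674 RPM after and 3236 ± 106 RPM before. The 15158 with no such longer sequence held 658 ± 519 RPM after and 4240 ± 107 RPM before.

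The groups did not overlap for any of these 3 sets. In RPM the log2 fold changes were 2.05 for TGG, -1.63 for other bases and -3.01 for no longer sequence (exact permutation within inputs, adjusted p = 0.00926 over 3 tests, chosen after the pattern was seen). Per methylated spike-in read the TGG set was also lower after oxidation, at -0.94, against -2.81 for the whole table. Both values rest on the pooled methylated spike-ins, and single ones were not tried for this set. Among all 935250 sequences of 22 nt or more, 2.34% have TGG at bases 20 to 22, which counts single longer sequences and not 19-mers. After TGG, the next 3 bases that ranked highest by 19-nt RPM after oxidation were TGT, with 91.6 RPM.

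The same continuation was seen at the lengths around 19 nt. After oxidation the TGG set held 63.6% of the RPM of 17-nt sequences, 59.8% at 18 nt, 62.05% at 20 nt, 51.6% at 21 nt and 62.02% at 22 nt, and at 25 nt it held 8.16%. TGG begins the 3' adapter of Illumina's TruSeq small RNA kit (TGGAAT), and TruSeq is 1 of the library strategies that the labels name for the series. Whether adapter removal shortened longer reads at such bases was not tested. Without the TGG set, 19 nt stood out only before oxidation: the remaining sequences summed to 1842 ± 1189 RPM after and 7476 ± 184 RPM before, against 1625 ± 1321 after and 1271 ± 35.8 before at 18 nt, and 2152 ± 1234 after and 2350 ± 92.6 before at 20 nt.

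**Figure D4:**
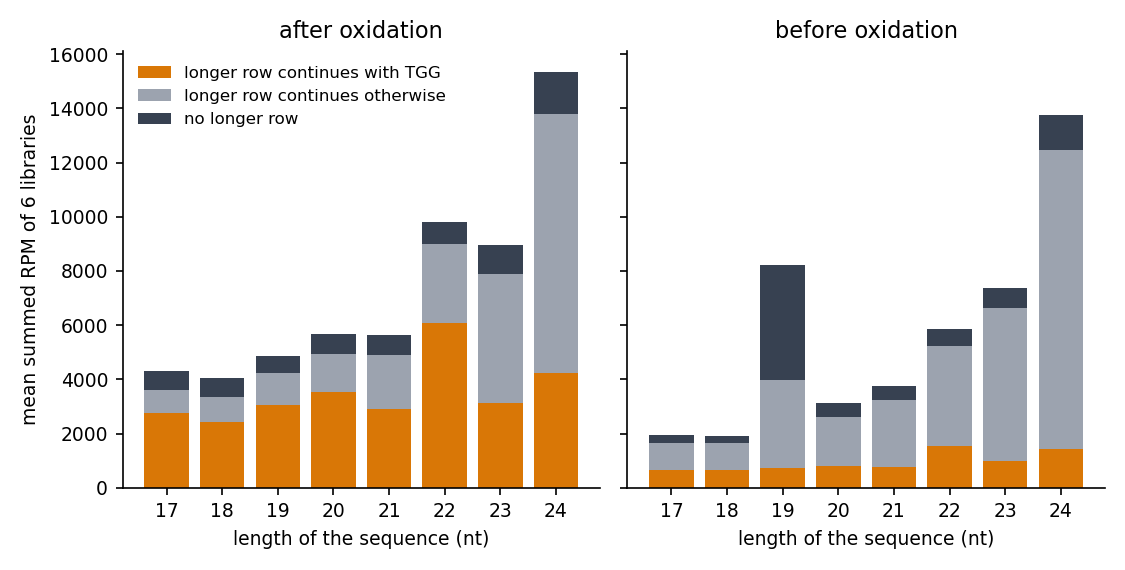
Mean summed RPM of the 6 libraries after oxidation (left) and the 6 before (right) by sequence length, stacked by what follows in a longer sequence of the table. At 19 nt the part that continues with TGG is 3039 RPM after and 734 RPM before (lower after oxidation per methylated spike-in read), and the part with no longer sequence is 658 RPM after and 4240 RPM before.

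The class outside TGG was smaller still once 10 ng was set aside. It held 2926 and 3742 RPM in the libraries after oxidation at 10 ng, against 1021 to 1304 RPM at 50 and 100 ng after oxidation and 7278 to 7660 RPM before. Of the 2926 and 3742 RPM, 1860 and 2638 RPM came from sequences seen in that library and no other. Over all 19-nt sequences, 241 and 229 were seen in 1 of the 10 ng libraries after oxidation alone, with means of 8.00 and 11.9 RPM each, against 0.890 to 1.58 RPM for such sequences at 50 and 100 ng after oxidation. The part of this in the smaller log2 fold change of the summed RPM at 10 ng was not tested.

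Single sequences were followed where the mean over the 12 libraries reached 5 RPM, which 121 of the 27324 did. A sequence passed that filter through whichever state it was high in, so counts over the 121 describe them and no more. Of the 121, 64 were called lower after oxidation and 42 higher, at a limma adjusted p below 0.05 over all 22726 sequences tested. Of all tested sequences 22.8% were called lower and 21.2% higher. In RPM few lay between: 63 had a log2 fold change below -3, 3 between -3 and -1, 9 between -1 and 1, and 46 above 1. The median of all tested sequences was -0.14 in RPM, and -2.59 when scaled to methylated spike-ins, where 89 of the 121 were called lower and 1 higher.

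**Figure D5:**
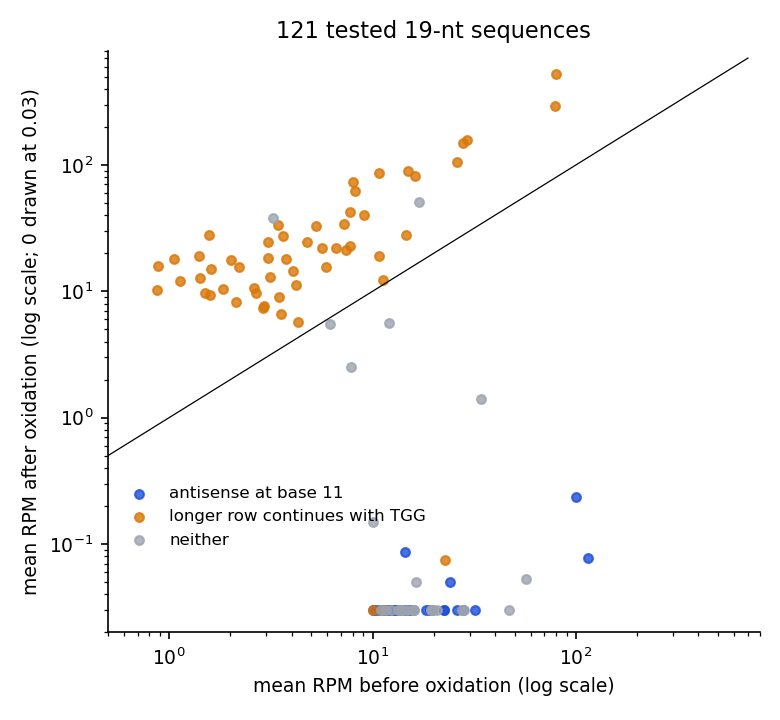
Mean RPM after oxidation against mean RPM before for the 121 tested 19-nt sequences, both on log scales, with 0 drawn at 0.03 and a line of equal RPM. The 55 with no read in any library after oxidation form the lower row, and sequences that continue with TGG lie mostly above the line in RPM (scaled to methylated spike-ins, 1 of the 121 was called higher).

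The 2 sets differed in what they were. All 25 tested sequences that were antisense at base 11 and did not begin with U were called lower, as were 14 of the 17 antisense ones that began with U. Of the 61 U-first sequences that were not antisense, 39 were called higher and 8 lower. Of the 42 called higher, 40 continue with TGG in a longer sequence of 25 nt or more, 36 with TGGA and 18 with TGGAAT. Of the 64 called lower, 34 had a longer sequence of that kind, and 2 continue with TGG. Of the 15 not called, 12 continue with TGG, 11 with TGGA and 3 with TGGAAT, so TGG was frequent there too. Among all 842341 sequences of 25 nt or more, 2.25% have TGG, 0.759% TGGA and 0.0505% TGGAAT at that place.

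L1 led the sequences that oxidation removed. It had a lowest, median and highest value of 0, 0 and 0.462 RPM after oxidation, and 71.8, 122 and 138 RPM before. The groups were far apart, with 1 read in all 6 libraries after oxidation against 2061 reads before. The ratio of after to before was 0.000547, with a 95% counting interval of 1.39e-05 to 0.00305, and the fitted log2 fold change was -6.73 ± 0.22 (SE, limma, adjusted p = 1.22e-06). It matched no transcript.

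Most other sequences antisense at base 11 had no read left. The partner of L10 has bases 11 to 29 in capitals, as above.
L10: CCGCACCCAAGATTCCAGA
Partner of L10: tggcaattatTCTGGAATCTTGGGTGCGG
L2 had 0 RPM in all 6 libraries after oxidation, and a lowest, median and highest value of 18.2, 19.8 and 32.3 RPM before, so it was at least 117-fold lower, taking 3 reads over the 6 libraries as the floor (0.191 RPM). L3 was at 0 RPM after, and had 19.8, 28.2 and 35.7 RPM before, at least 146-fold lower. L10 was at 0 RPM after, and had 12.4, 17.7 and 27.5 RPM before, at least 101-fold lower. The limma adjusted p was 5.58e-06, 4.66e-06 and 8.17e-06 for these 3.

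A second pair is shown because the members overlap, again with bases 11 to 29 of the partners in capitals.
L8: CAAACTTGGTAGATGAGAA
Partner of L8: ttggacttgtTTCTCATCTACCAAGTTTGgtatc
L9: CCAAACTTGGTAGATGAGA
Partner of L9: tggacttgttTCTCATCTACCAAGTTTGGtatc
L8 and L9 overlap each other by 18 bases and match 4 genes on chromosome 13 (Gm906, Gm904, Gm8765 and the pseudogene Gm20789), so reads cannot be assigned to 1 of them. The match in Gm906 is in the coding sequence of exon 4, at chr13:50247744-50247762 on the minus strand (GRCm38) for L8. L8 had 0, 0 and 0.299 RPM after and 12.5, 22.03 and 35.7 RPM before (lowest, median and highest; limma adjusted p = 6.29e-06), and L9 was at 0 RPM after and 7.99, 20.4 and 29.1 RPM before (limma adjusted p = 1.03e-05). Both were lost together, and both are antisense at base 11 of partners whose starts also differ by 1 base.

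Some lost sequences had no partner at base 11 in the table. They are shown with the first base in capitals.
L5: Ataggaggaccaacaatat
L6: Tagaagagacagtagatac
L7: Accagagaactcctaaacc
L5 was at 0 RPM in all 6 libraries after oxidation and had 36.3, 48.7 and 56.5 RPM before, at least 246-fold lower (limma adjusted p = 2.06e-06). L6, antisense to the lincRNAs Gm14144 and 4930442J19Rik on chromosome 2, was at 0 RPM after and had 24.5, 28.1 and 31.1 RPM before, at least 148-fold lower (limma adjusted p = 3.68e-06). L7, which matches 39 genes on 13 chromosomes, was at 0 RPM after and had 12.9, 26.5 and 45.4 RPM before, at least 144-fold lower (limma adjusted p = 4.53e-06). These 3 were as completely absent after oxidation as the antisense ones.

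L11 was called lower but kept some reads after oxidation.
L11: Tgaactggaccaggaggaa
It lies in exon 1 of the lincRNA Gm49794 at chr17:27356011-27356029 on the plus strand (GRCm38) and had 0, 0.797 and 5.05 RPM after oxidation, and 20.2, 28.7 and 56.3 RPM before (lowest, median and highest). Its log2 fold change was -4.07 ± 0.33 (SE, limma, adjusted p = 3.17e-05). The 21-nt sequence with the same start had 23.6, 29.5 and 37.8 RPM after and 64.02, 81.8 and 154 RPM before, so the longer form kept more of its level than the 19-nt form.

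The 4 sequences that dominated after oxidation all begin with U and continue with TGG. P1 had a lowest, median and highest value of 356, 529 and 629 RPM after oxidation, and 46.5, 86.6 and 111 RPM before. P2 had 221, 296 and 351 RPM after and 27.9, 79.0 and 125 RPM before, P3 had 129, 154 and 192 RPM after and 12.7, 31.96 and 38.1 RPM before, and P4 had 120, 151 and 175 RPM after and 15.4, 26.7 and 38.7 RPM before. No library after oxidation overlapped one before in RPM for any of the 4. Their log2 fold changes were 2.74 ± 0.13, 2.03 ± 0.17, 2.45 ± 0.22 and 2.43 ± 0.16 (SE, limma, adjusted p = 3.29e-06, 3.19e-05, 5.15e-05 and 1.14e-05). Scaled to methylated spike-ins the 4 turned round, to -0.23, -0.93, -0.48 and -0.50. None matched a transcript.

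The longer forms of these sequences were rare. Among all sequences that begin with P1's 19 bases, the 19-nt form held 99.0% of the RPM after oxidation and 82.0% before. For P2 it held 98.2% after and 96.7% before, for P3 97.7% after and 90.1% before, and for P4 92.8% after and 78.8% before.

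The 6 highest log2 fold changes also belonged to U-first sequences, shown inside their most abundant longer sequence with bases 20 to 22 in capitals.
P5 with what follows: ttgcctgctgttagctttgTGGaattgtga
P6 with what follows: tgcagagcctgtgccactcCGGaatt
P7 with what follows: tgttctgccatgggtgtacTGGaatg
P8 with what follows: tcgtagaaactggtttgtcTGGagctcc
P9 with what follows: tgagagcctcgttctgcccTGGaatt
P10 with what follows: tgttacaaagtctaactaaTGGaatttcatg
They were 3.45 ± 0.35 for P5, 3.19 ± 0.25 for P6, 3.07 ± 0.34 for P7, 3.06 ± 0.49 for P8, 3.03 ± 0.22 for P9 and 3.03 ± 0.27 for P10 (SE, limma, adjusted p of 0.00103 or less). These are changes in RPM. Scaled to methylated spike-ins the 6 kept direction, but 5 of them were no longer called. P5 had 7.86, 27.3 and 46.3 RPM after and 0, 1.51 and 3.58 RPM before (lowest, median and highest). P10, with 61.2, 84.7 and 113 RPM after and 2.54, 10.3 and 16.9 RPM before, is antisense at base 11 of a longer sequence and still stood with the sequences that persisted. In the most abundant longer sequence of 5 of the 6 the next bases are TGG, and for P6 they are CGG.

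Calls for input were also made with limma. Of the 121, 3 were called for the interaction of oxidation with input, against 23.1% of all tested sequences. Between 10 and 100 ng, 9 were called after oxidation, against 41.4% of all tested, and 1 before, against 1.8%. Since 55 of the 121 had no read in any library after oxidation and could not be called there, the count of 9 is not comparable with 41.4%. For these 55 an interaction could come only from input differences before oxidation, so the count of 3 is not comparable with 23.1% either. The 1 called before was P2, lower at 10 ng, with 27.9 and 42.8 RPM at 10 ng against 119 and 125 RPM at 100 ng (limma log2 fold change -1.79, adjusted p = 0.0202). These counts rest on single libraries. Leaving out replicate 1 or replicate 2 at 10 ng after oxidation, so that the lone 10 ng library was assumed to vary like the other groups, gave 21 and 16 calls for the interaction, 23 and 17 for input after oxidation, and 13 and 13 for input before. Leaving out any other library gave 1 to 4 calls for the interaction, 5 to 11 after oxidation and 0 to 2 before.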

How the data were processed

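The authors deposited RPM values for piRNA sequences and miRNAs, and raw read counts for spike-ins; per the submitters' processing notes Bowtie was used, with the builds mm10 and hg38, and their roles are not given in the sources used here. All piRNA values were whole reads (100% in every library, within 0.01 of a read), and 3 reads in 1 library, taken as the floor, are worth 0.896 to 1.56 RPM. Floors and intervals cover counting error only.

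Sequences of 19 nt not ending in CCA were matched exactly to the longer sequences of the same table and to GENCODE M21 transcripts (Python 3.11.15, pandas 2.3.3). Sums and shares were tested by exact 2-sided permutation of oxidation labels within inputs, and lengths by exact sign flips over libraries. Sequences of at least 5 RPM on average were tested with limma-trend (limma 3.58.1, R 4.3.3) on log2(RPM + 1), 6 group means, adjusted over all 22726 tested. On simulated data with the 22726 sequences, 70% of 2-fold and 100% of 4-fold changes were recovered. These shares are over all tested sequences and give no rate for the 121 of 19 nt. Among the 121, a sequence with a mean of 9.71 RPM after oxidation and 1.51 RPM before was not called (limma adjusted p = 0.054). Nor was one with 18.0 RPM after and 3.75 RPM before (limma adjusted p = 0.0837), or one with 9.43 RPM after and 1.60 RPM before (limma adjusted p = 0.122). Changes above 4-fold in mean RPM were thus missed among the 121.

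Named sequences were, among those tested, the 6 highest before oxidation, the 6 lowest and 6 highest log2 fold changes called and alike in 6 pairs, the 6 highest before that were antisense at base 11, the 4 highest after, and the 3 smallest interaction p, leaving out any placed on a chromosome not reported here. Members, lists and tests were chosen with earlier results of these data known. Alternatives were pseudocounts of 0.1 and 10, other filters and scalings, edgeR (4.0.16), DESeq2 (1.42.0), a replicate block and leaving out each library. Same-numbered replicates did not deviate together (correlations of -0.055 to 0.01).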

Additional observations from a re-analysis of the deposited data

Results flagged for a closer look

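For 3 of the 121 tested 19-nt sequences the effect of oxidation differed with the input by limma's interaction test over the 3 inputs. The values given are the log2 fold change at 10 ng minus that at 100 ng.
P11 with what follows: tggttgttatctgatctcaTGGtgcct
P12 with what follows: taggtgctagggatatattTGGaaat
P11 had 3.06 ± 0.61 (SE, limma, adjusted p = 0.0123), with log2 fold changes of 4.19 at 10 ng, 1.62 at 50 ng and 1.14 at 100 ng. P12 had -2.70 ± 0.70 (SE, limma, adjusted p = 0.0303), with -1.62 at 10 ng, 1.03 at 50 ng and 1.08 at 100 ng. It was at 0 RPM in both libraries after oxidation at 10 ng and at 13.8 RPM in its highest library after oxidation. P2 had 1.70 ± 0.41 (SE, limma, adjusted p = 0.0349), with 2.97 at 10 ng, 1.85 at 50 ng and 1.28 at 100 ng. All 3 continue with TGG in a longer sequence. The number called depended on the libraries at 10 ng after oxidation, as given with the calls for input.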

How the results depend on the processing

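The summed level, its share of the table and its reads per methylated spike-in read, and the shares antisense at base 11, with U first, with A at base 10 and at the start of a longer sequence kept direction and call in every alternative run, except that over sequences of at least 5 RPM the sum and the table share turned round, to log2 values of 0.44 and 0.26. Values moved by over 1.5 times in some. Without sequences that continue with TGG the sum was at -2.24, the table share at -2.42, U first at 24.9 points, A at base 10 at -4.42 and shared starts at 17.7, and over sequences of at least 5 RPM shared starts were at 17.1. Scaled to all or to methylated spike-in reads the sum was at -3.44 and -3.78. With each methylated spike-in used alone it was at -5.07, -3.79 and -3.10. Partners of at least 1 RPM gave -11.7 points for antisense pairing. Counted once, U first was at 22.3, A at base 10 at -3.39, the 19 against 20 nt difference after oxidation at 1.72, and that against 18 nt turned to 0.864. Leaving out each library in turn gave -0.82 to -0.75 for the sum, -0.998 to -0.93 for the table share, -3.85 to -3.70 per spike-in read, -32.4 to -32.1 points for antisense pairing, 32.2 to 34.6 for shared starts, 38.8 to 42.0 for U first and -11.5 to -10.4 for A at base 10. For the length comparisons it gave 26.7 to 27.01 and 22.6 to 23.3 points against 20 and 18 nt before oxidation, and 2.58 to 2.74 and -4.82 to -3.42 after; with 5 libraries the sign-flip test cannot reach 0.05.

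Among single sequences, 64 to 66 were called lower and 41 to 48 higher with a library left out, 1 to 21 for the interaction, 0 to 13 for 10 against 100 ng before oxidation and 5 to 23 after. With no filter 461 were called lower and 1 for the interaction. With a filter of 50 RPM, which left 8, 2 were called lower, 6 higher, 1 for the interaction, 3 for input before and 0 after oxidation (0 also at an unadjusted limma p under 0.05). Scaled to methylated spike-ins 1 was called higher, and 11 for input before, and 5 of the sequences P5 to P10 lost their call. Without TGG sequences 2 were called higher. Pseudocounts of 0.1 and 10 gave 8 and 6 for the interaction and 2 and 5 for input before, and the latter gave 18 after. Quantile normalization gave 12, 6 and 65 in that order. edgeR gave 6 for the interaction and 0 for input before (18 at an unadjusted p under 0.05), and DESeq2 gave 8 and 8. As a share of the table, 2 were called for input before. P1, P2, P3, P4 and P11 turned round when scaled to methylated spike-ins, to -0.23, -0.93, -0.48, -0.50 and -0.14, and so did P12, not called at 0.16, to -1.77 and a call (limma adjusted p = 0.000112). P12 was also negative with a pseudocount of 0.1 (-0.67), edgeR (-1.27), DESeq2 (-1.39), centring on library medians (-0.043) and as a share of the table (-0.0039). The cause of these shifts was not tested.

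With a replicate block, which shared numbers but no stated day or batch, the calls were 64 lower, 43 higher, 2, 1 and 10, and each sum and share kept its value (-0.79 for the sum, exact sign-flip p = 0.03125, the smallest it allows). No genome was searched, so sequences outside annotated transcripts have no position, and antisense pairing was sought only within the table.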

Other observations

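The 234 sequences of 19 nt that end in CCA, left out above, held 177 ± 102 RPM after oxidation and 72.3 ± 4.1 RPM before (SD, n = 6 each). In RPM they thus lay with the 18- and 20-nt sequences rather than with the other 19-nt ones.

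The 5894 sequences of 19 nt that match no longer sequence of the table on the same strand held 59.5 ± 21.4 RPM after oxidation and 1053 ± 37.7 RPM before. Those that match neither strand, 2185 in number, held 52.9 ± 17.9 RPM after and 352 ± 23.2 RPM before. By first base, A held 422 ± 423 RPM after and 1803 ± 70.9 before, C 319 ± 239 after and 1714 ± 43.3 before, G 167 ± 92.5 after and 1177 ± 79.9 before, and U 3973 ± 586 after and 3517 ± 112 before.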
